A study of Rattus norvegicus with 60 samples.

Results

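Kidney cortex of NOX4 knockout rats was compared with kidney cortex of their parent strain after 21 days on a diet with 4.0% NaCl. The comparison takes the 10 libraries labelled for cortex and day 21, out of 60 in the whole series: 5 of the NOX4 knockout line (NOX4) and 5 of the wild-type Dahl salt-sensitive rat (SS). Both groups share the SS background and the salt diet (HS21), so they differ in the Nox4 allele and in anything else that separates the lines. The other groups cover the same strains in cortex and outer medulla under control conditions (LS) and after 7 days on that diet (HS7), with 5 libraries each. RNA was taken from frozen tissue and enriched for poly(A). The knockout allele, the promoter of any Cre, the sex and the age of the rats, and whether the 5 libraries of a group are 5 animals are not given in the sources used here, so p-values measure the spread between libraries.

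NADPH oxidase 4 is a membrane enzyme that passes electrons from NADPH to oxygen and releases mostly hydrogen peroxide, and the renal tubule is one of its main sites. It needs the partner p22phox, encoded by Cyba, and is controlled largely by its own amount. The SS rat becomes hypertensive on high salt and develops protein-rich urine, glomerular scarring, tubular casts and interstitial fibrosis. The study asks how loss of NOX4 bears on metabolic stress in this kidney.

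The NOX4 libraries held 14.8 to 23.2 M counts and the SS libraries 20.7 to 26.8 M. At a common depth of 10 M counts, 17048 to 17398 genes were detected in NOX4 libraries and 17400 to 17642 in SS libraries, which did not overlap. Mitochondrially encoded genes took 11.7% to 13.4% of counts in NOX4 and 10.5% to 12.5% in SS. Among the other cortex groups, 5 SS libraries (3 at LS, 2 at HS7) held 14089 to 15417 genes at that depth and are called low-complexity libraries. The library numbers in the labels are lower for every SS than for every NOX4 cortex library; what these numbers record is not given in the sources used here. Podocyte markers summed to 2194 to 2334 CPM in NOX4 against 1814 to 2025 CPM in SS and early proximal tubule markers to 29061 to 40719 CPM in NOX4 against 26754 to 32835 CPM in SS, so both defining cell types of cortex were present. SS replicate 5 stood nearest to NOX4 in many genes, and the counts of called genes for the leading lists are given with and without it below.

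Nox4 itself (ENSRNOG00000013925, chromosome 1, 150797084 to 150976194, plus strand in the deposited annotation, whose build is not given) had 67.3, 70.6, 55.7, 60.2 and 74.9 CPM (counts per 1 M counts of the library) in NOX4 replicates 1 to 5. In SS replicates 1 to 5 it had 315, 292, 270.1, 314 and 388 CPM. Every NOX4 library lay far below every SS library, and the NOX4 mean was 20.8% of the SS mean. The difference was -2.26 on the log2 scale (exact permutation test over 252 splits, 2-sided, p = 0.00794, the smallest these groups allow). In the fit across all genes it was -2.26 ± 0.15 (SE), with an adjusted p of 5.6e-11. A transcript of the gene was therefore still counted in the knockout line, and the counts do not show which part of it.

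Across the transcriptome, 152 of 15179 genes passed an adjusted p of 0.05 (edgeR quasi-likelihood test over all 30 cortex libraries, Benjamini-Hochberg), which is 1.00% of those tested. Such genes are named as called, higher or lower in NOX4. The called genes were 51 that were higher (0.336%) and 101 that were lower (0.665%). The lower genes had the greater changes: 44 of them, and none of the higher ones, differed more than 2-fold. NOX4 and SS libraries did not overlap for 43 of the 51 higher genes and 89 of the 101 lower genes, against 7.42% of all genes tested. The called genes were selected on these same libraries, so this separation is no further support for the calls. The median log2 fold change of all genes was 3.3e-06. An unadjusted p under 0.05 was reached by 1729 of the 15179 genes, the background for such counts in the lists below.

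The number of calls depended on which libraries set the spread. Fitted on the 10 libraries alone, 1237 of 14625 genes were called (8.46%), 602 higher and 635 lower, and all 152 were among them. The square root of the common dispersion, the typical coefficient of variation between libraries, was 0.144 there and 0.223 over the 30 libraries. Without SS replicate 5 the 30-library fit called 290 genes (129 higher, 161 lower), all 152 included. Without SS replicate 3 it called 29 (9 higher, 20 lower). Without the low-complexity libraries of the other groups it called 583, all 152 included, and DESeq2 on all libraries called 339. Limma voom on all libraries called 2161, 1052 higher and 1109 lower. The totals of these fits and tools are the background for the list counts taken from them below. Of the 152 genes, 20 lower and 7 higher ones stayed called whichever of the 10 libraries was left out, and these lead the account below; each of the others lost its call in at least 1 of those fits.

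**Figure D1:**
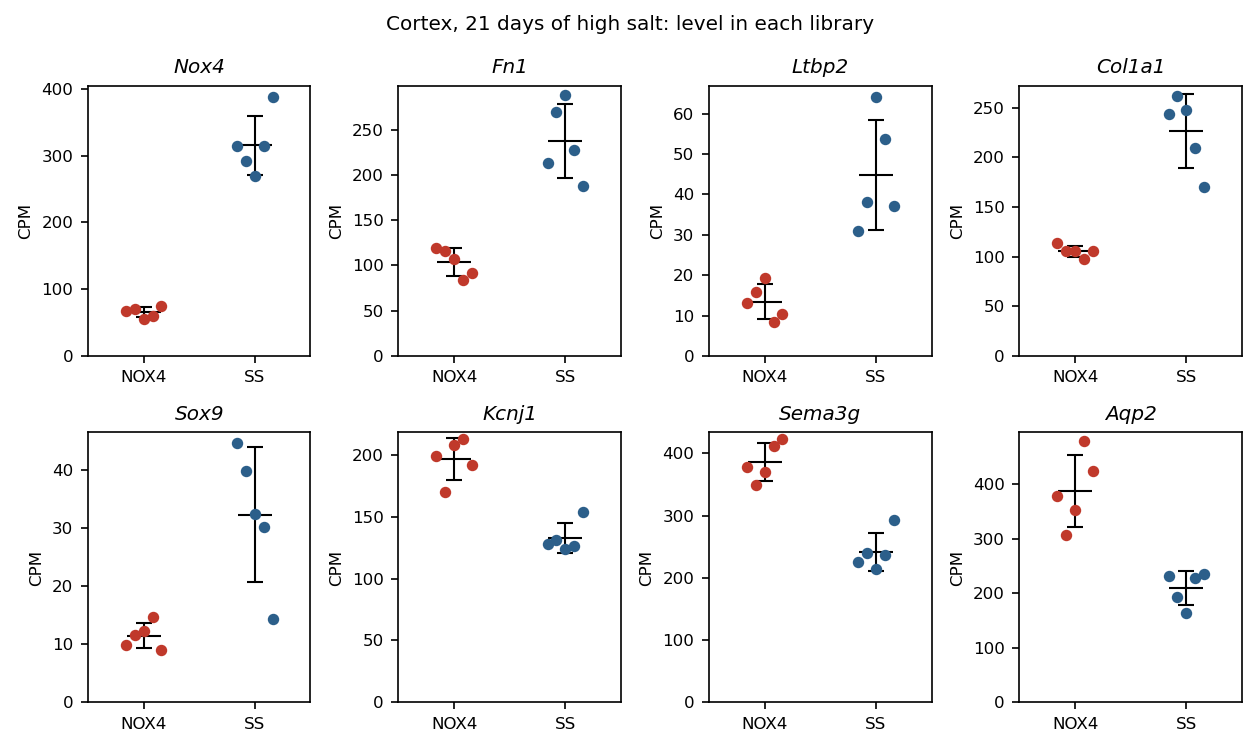
CPM of 8 genes in each of the 5 NOX4 and 5 SS cortex libraries at HS21, with the group mean and SD in black. Nox4, Fn1, Ltbp2 and Col1a1 lie lower in every NOX4 library than in every SS library and Kcnj1, Sema3g and Aqp2 lie higher, whereas for Sox9 the highest NOX4 library (14.7 CPM) passes the lowest SS library (14.4 CPM).

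Among genes of the extracellular matrix, calls lower in NOX4 outnumbered calls higher, although most members of each list did not pass. Fibronectin, the glycoprotein on which other matrix fibres assemble, is encoded by Fn1 (ENSRNOG00000014288, chromosome 9, 78900103 to 78969078, minus strand). It had 119, 116, 107, 83.5 and 92.1 CPM in NOX4 replicates 1 to 5 and 214, 269.8, 288, 227 and 188 CPM in SS replicates 1 to 5. No NOX4 library reached the lowest SS library, which was replicate 5. The log2 fold change was -1.20 ± 0.16 (SE, adjusted p = 0.00036). Ltbp2 (ENSRNOG00000012094, chromosome 6, 108500112 to 108596569, minus strand), which encodes a latent TGF-beta binding protein of elastic microfibrils, had 13.2, 15.9, 19.2, 8.38 and 10.3 CPM in NOX4. In SS it had 30.8, 38.1, 64.1, 53.8 and 37.2 CPM. The groups were again apart, with a log2 fold change of -1.74 ± 0.25 (SE, adjusted p = 0.0005), and both genes kept their call without any 1 library.

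Of 22 collagen genes tested, 8 were called and all 8 were lower (36.4% of the list, against 0.665% of all genes called lower), and the median over the list was -0.68. Another 12 also had negative log2 fold changes without passing the test, and for 17 of the 22 every NOX4 library lay below every SS library, against 3.67% of all genes. Type VI collagen forms beaded filaments around cells, and its Col6a1 averaged 58.0 ± 4.60 CPM in NOX4 against 101 ± 10.99 CPM in SS (SD, n = 5 each), a log2 fold change of -0.80 ± 0.14 (SE, adjusted p = 0.0075). The fibrillar Col5a1 averaged 40.8 CPM in NOX4 against 70.1 CPM in SS, a log2 fold change of -0.78 with adjusted p = 0.0078. Col1a1, the main fibrillar collagen of scar, had 113, 105, 106, 97.7 and 105 CPM in NOX4 against 244, 262, 248, 209.6 and 169.8 CPM in SS. The NOX4 values lie within a narrow band, and the lowest SS value again belongs to replicate 5. Its log2 fold change of -1.10 ± 0.26 (SE) had an adjusted p of 0.034, but it was called in 1 of the 10 fits that left out a library, with an adjusted p of up to 0.11.

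Col3a1 (log2 fold change -1.06, adjusted p = 0.044) depended on the libraries in the same way and was called in 1 of 10 such fits. The other called collagens were Col8a1 (-1.66), Col5a2 (-0.72), Col6a2 (-0.61) and Col4a2 of the basement membrane (-0.60). Per length, in the deposited FPKM, Col3a1 was the most abundant of Col1a1, Col3a1, Col6a1, Col5a1 and Col8a1, with a mean of 46.3 FPKM in NOX4 and 96.4 FPKM in SS. On that scale Col1a1 had 20.2 FPKM in NOX4 and 43.2 FPKM in SS, and Col8a1 had 0.946 FPKM in NOX4 and 2.98 FPKM in SS. Among collagens that missed the threshold, Col14a1 had a log2 fold change of -1.18 (adjusted p = 0.060), Col4a1 of -0.59 (adjusted p = 0.084) and Col1a2 of -0.79 (adjusted p = 0.24). Only Col5a1 and Col6a1 of the 8 kept the call without any 1 library. Called collagens numbered 12 without SS replicate 5 and 2 without SS replicate 3, and the 10 libraries alone gave 19, against 4.34% of all genes called lower in that fit.

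Microfibrils and the enzymes that cross-link matrix fibres followed, with a list median of -0.24. Of 20 genes of the elastic fibre and cross-linking list, 5 were called, all lower, against 0.665% of all genes called lower. Besides Ltbp2 these were Fbn1 (fibrillin, log2 fold change -1.04, adjusted p = 0.011), Ltbp4 (-0.54, adjusted p = 0.0085) and the lysyl oxidases Lox (-1.30, adjusted p = 0.011) and Loxl1 (-0.66, adjusted p = 0.0078). Lox, also the only called gene of 21 in the hypoxia response list, had 6.55, 9.34, 7.52, 5.44 and 4.92 CPM in NOX4 against 16.3, 17.2, 21.8, 16.1 and 11.6 CPM in SS. No library of the 2 groups overlapped. Of these 5 genes, Ltbp2, Ltbp4 and Loxl1 stayed called without any 1 library.

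Of 25 matrix glycoproteins, 6 were called and all 6 were lower, against 0.665% of all genes called lower, with a median of -0.47. They were Fn1, tenascin Tnc (-1.65, adjusted p = 0.029), Mgp (-0.95), Fbln1 (-1.02), Thbs1 (-0.65) and Sparcl1 (-0.65). Of 15 proteoglycan genes, Dcn (decorin, -0.91, adjusted p = 0.0075) and Bgn (biglycan, -0.70, adjusted p = 0.030) were lower. Gpc1, a cell-surface glypican, was higher (0.48, adjusted p = 0.035). Of all genes, 0.665% were called lower and 0.336% higher. Of 20 matrix proteases and their inhibitors, 3 were lower, against 0.665% of all genes called lower. Among them were the secreted protease Htra3 (-1.10, adjusted p = 0.0066) and the inhibitor Serpine2 (-0.79, adjusted p = 0.035). Pxdn, a peroxidase that cross-links type IV collagen (-0.77, adjusted p = 0.0081), and PCOLCE2, which promotes procollagen cleavage (-1.30, adjusted p = 0.0079), kept their calls without any 1 library. Without SS replicate 5, called glycoproteins numbered 8 and called proteases and inhibitors 6. Without SS replicate 3 each of these lists had 1. Across all genes those fits called 290 and 29.

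Of 28 TGF-beta and BMP signalling genes none was called by edgeR, with a median of -0.12. At an unadjusted p under 0.05 there were 7 members, 6 of them lower. DESeq2 called 2 and limma voom 10, against 339 and 2161 across all genes. Tgfb1 had 41.8, 34.2, 38.3, 42.5 and 38.3 CPM in NOX4 against 51.9, 56, 64.5, 54.1 and 47.5 CPM in SS. All 5 NOX4 values lay below all 5 SS values, with a log2 fold change of -0.49 ± 0.13 (SE) and an adjusted p of 0.055 just outside the threshold.

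**Figure D2:**
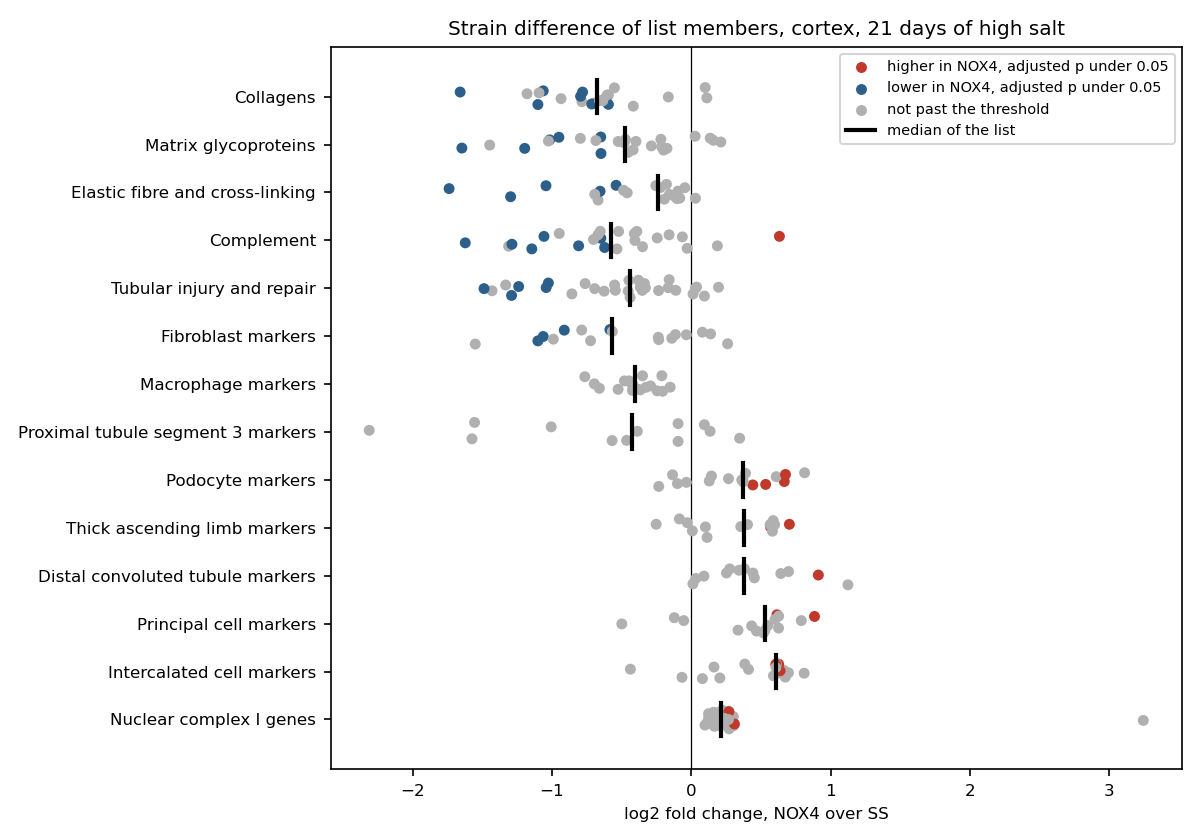
Log2 fold change (NOX4 over SS) of each tested member of 14 gene lists in cortex at HS21; colours mark members called higher or lower, and the bar is the list median. Collagens (median -0.68), complement (-0.58) and fibroblast markers (-0.57) lie left of 0, and podocyte (0.37), principal cell (0.53) and intercalated cell markers (0.61) lie right of it, each with most members not called.

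Of 17 fibroblast markers tested, 4 were called and all were lower, against 0.665% of all genes called lower, with a median of -0.57. They were Pdgfra, the platelet-derived growth factor receptor of resident fibroblasts, Dcn, Col1a1 and Col3a1, of which the last 3 are matrix genes themselves. None of the 17 was called with the segment 3 covariate described below. Pdgfra had 88.9, 102, 83.8, 93.2 and 102 CPM in NOX4 against 153, 163, 144, 127 and 118 CPM in SS. No NOX4 library reached an SS library, and the log2 fold change was -0.58 ± 0.11 (SE, adjusted p = 0.0091). The summed level of the list was 957.7 to 1087 CPM in NOX4 against 1348 to 1792 CPM in SS. In whole tissue, fewer cells of a type and less RNA per cell cannot be told apart. Smooth muscle and pericyte markers gave no call among 16 by edgeR (5 at an unadjusted p under 0.05, 4 of them lower). DESeq2 called 2 of them and limma voom 6, against 339 and 2161 across all genes. The sums of these markers were 398.6 to 508 CPM in NOX4 against 499.8 to 580.4 CPM in SS. Pdgfrb of pericytes had a log2 fold change of -0.57 (adjusted p = 0.055) and Tagln of smooth muscle -0.64 (adjusted p = 0.056).

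Genes that mark injured and repairing tubules were also lower, in 5 of 30 cases (16.7%, against 0.665% of all genes called lower; median -0.44). Sox9 (ENSRNOG00000002607, chromosome 10, 101288489 to 101293379, plus strand), a transcription factor that regenerating tubule cells switch on, had 9.89, 11.6, 12.2, 14.7 and 9.03 CPM in NOX4 against 44.6, 39.9, 32.4, 30.2 and 14.4 CPM in SS. Only SS replicate 5 fell within the NOX4 range. The log2 fold change was -1.49 ± 0.30 (SE, adjusted p = 0.011) and the call held without any 1 library. Cp, the ferroxidase ceruloplasmin, averaged 76.9 ± 13.3 CPM in NOX4 against 157 ± 34.5 CPM in SS (SD, n = 5 each; log2 fold change -1.03, adjusted p = 0.0068). Lcn2, the secreted injury marker NGAL, had 8.75, 7.78, 17.6, 4.93 and 4.41 CPM in NOX4 against 16.5, 19.7, 29.1, 25.1 and 12.6 CPM in SS. NOX4 replicate 3 stood above 2 SS libraries, and the call (log2 fold change -1.24, adjusted p = 0.035) held in 2 of 10 fits without 1 library.

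The hyaluronan receptor Cd44 (-1.04, adjusted p = 0.015) and the keratin Krt19 (-1.29, adjusted p = 0.037) completed the called injury genes. The list had 8 calls without SS replicate 5 and 2 without SS replicate 3, all lower. Havcr1 and Spp1 did not pass. Havcr1, which encodes KIM-1, had 24.5, 33.1, 50.8, 12.3 and 8.98 CPM in NOX4 against 51.1, 78.3, 90.5, 83.4 and 47.1 CPM in SS (log2 fold change -1.43 ± 0.43, SE, adjusted p = 0.11). Spp1, osteopontin, had 828, 1067, 1809, 418 and 415 CPM in NOX4 against 1866, 2221, 3402, 2600.1 and 1344 CPM in SS (-1.33 ± 0.35, SE, adjusted p = 0.056). In both genes NOX4 replicate 3 was the highest of its group and lay above SS replicate 5, the lowest of its own.

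Complement genes gave the next group: 7 of 24 were lower and 1 was higher, with a median of -0.58. Of all genes, 0.665% were called lower and 0.336% higher. The initiating protease C1r averaged 112 ± 12.2 CPM in NOX4 against 176 ± 10.6 CPM in SS (SD, n = 5 each), a log2 fold change of -0.65 with adjusted p = 0.0081, and alone in the group stayed called without any 1 library. The terminal component C7 (ENSRNOG00000061379) had 252, 242, 205, 194 and 265 CPM in NOX4 against 406, 424, 472, 379 and 348 CPM in SS (-0.81 ± 0.17, SE, adjusted p = 0.013). No NOX4 library reached the SS range. C4b (-1.62, adjusted p = 0.013) and C4a (-1.15, adjusted p = 0.014) are near-identical copies between which reads can be split, so their separate values are uncertain. The inhibitors Serping1 (-1.06, adjusted p = 0.011) and Cfi (-1.29, adjusted p = 0.044) were lower as well. Cd55, the decay-accelerating factor of cell surfaces, was the higher one, with 11.9, 13.5, 14.4, 11.4 and 12.6 CPM in NOX4 against 7.41, 7.94, 8.63, 7.74 and 9.35 CPM in SS (0.63 ± 0.16, SE, adjusted p = 0.044). That call held in 1 of 10 fits without 1 library. Without SS replicate 5 the list had 8 lower and 1 higher call, and without SS replicate 3 it had 1 lower call. C3, the hub of the cascade, averaged 27.5 CPM in NOX4 against 30.7 CPM in SS (-0.16, adjusted p = 0.94).

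Several other called genes are known from inflammation; they were put side by side after their values were seen. Lbp, which carries bacterial lipopolysaccharide (-1.14, adjusted p = 0.0075), Socs3, the feedback inhibitor of STAT signalling (-1.36, adjusted p = 0.011), Bcl3, a partner of NF-kappa-B (-1.01, adjusted p = 0.013), and Osmr, the oncostatin M receptor (-0.89, adjusted p = 0.027), were lower. So was Fga, the fibrinogen alpha chain (-1.20, adjusted p = 0.030). It was the only called gene of 18 in coagulation, against 0.665% of all genes called lower. Of 33 chemokine and cytokine genes 3 were called lower, against 0.665% of all genes, and the median was -0.39. They were Osmr, Tnfrsf1a (-0.42, adjusted p = 0.038) and Cx3cl1, the membrane-bound chemokine fractalkine (-0.49, adjusted p = 0.017). Cx3cl1 had 137, 129.7, 129, 139 and 141 CPM in NOX4 against 190.4, 217, 203, 168 and 173 CPM in SS. Of 21 adhesion genes, Icam1 (-0.43, adjusted p = 0.037) and Cdh11 (-0.82, adjusted p = 0.042) were lower, against 0.665% of all genes.

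Immune cell markers gave no call by edgeR over the 30 libraries. All 18 macrophage markers had negative log2 fold changes, with a median of -0.41, and 6 had an unadjusted p under 0.05. EdgeR and DESeq2 called none, and limma voom called 8, against 2161 across all genes. Fitted on the 10 libraries alone, 6 of the 18 were called, all lower, against 4.34% of all genes called lower in that fit. Csf1r, the receptor for macrophage growth factor, averaged 64.9 CPM in NOX4 against 90.6 CPM in SS (-0.48, adjusted p = 0.20). The macrophage sum was 559.6 to 698.7 CPM in NOX4 against 643.6 to 939.9 CPM in SS. Lymphocyte markers (13 tested, median -0.38, 1 at an unadjusted p under 0.05) summed to 76.2 to 98.6 CPM in NOX4 against 94.4 to 135 CPM in SS. EdgeR and DESeq2 called none of them, and the 10 libraries alone gave 3, all lower. Antigen presentation (18 genes, median -0.12) and interferon-stimulated genes (24 genes, median -0.01) had 1 and 3 members at an unadjusted p under 0.05, and edgeR and DESeq2 called none there.

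Other lower genes that kept their call belong to none of the lists. They were Slc34a2, a sodium-phosphate cotransporter (-1.60, adjusted p = 0.011), Gcnt1, an enzyme that branches O-linked sugar chains (-1.03, adjusted p = 0.0066), and Spns2, the exporter of sphingosine-1-phosphate (-0.67, adjusted p = 0.0085). Slc34a2 had 29.6, 38, 42.7, 29.6 and 17.2 CPM in NOX4 against 107, 119.9, 109, 94.6 and 46.7 CPM in SS. The highest NOX4 library lay just under SS replicate 5. A few called genes of low level are typical of fat: Car3 (-1.86, adjusted p = 0.047) and Fabp4 (-1.25, adjusted p = 0.042) were lower, and each kept its call in 2 of 10 fits. The summed adipocyte markers were 83.6 to 125.8 CPM in NOX4 against 89.9 to 125.8 CPM in SS, and Adipoq averaged 8.16 CPM in NOX4 against 6.39 CPM in SS.

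Of the 51 higher genes 33 belong to none of the lists, and the others include members of the podocyte and distal nephron lists. Of 17 podocyte genes 4 were called and all were higher (23.5%, against 0.336% of all genes called higher), with a median of 0.37. Of the 17, 13 had positive and 4 negative log2 fold changes. Sema3g (ENSRNOG00000018952, chromosome 16, 7303578 to 7315390, plus strand), a semaphorin that podocytes secrete, had 379, 349, 369.8, 412 and 423 CPM in NOX4 against 225, 240.4, 214, 236 and 293 CPM in SS. All NOX4 libraries lay above all SS libraries (0.68 ± 0.12, SE, adjusted p = 0.0079), also without any 1 library. Nephrin, the core of the slit diaphragm encoded by Nphs1, had 97.9, 96.9, 102, 98.1 and 98.2 CPM in NOX4 against 57.3, 59.1, 60.5, 59.3 and 73.9 CPM in SS. The SS value that stood apart was that of replicate 5, and the log2 fold change was 0.67 ± 0.15 (SE, adjusted p = 0.022).

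The phosphatase Ptpro (0.53, adjusted p = 0.014) and the podocalyxin gene Podxl (0.44, adjusted p = 0.025) were the other 2. Dendrin, a slit-diaphragm partner encoded by Ddn, was not on the list; it averaged 41.7 ± 4.2 CPM in NOX4 against 24.1 ± 4.3 CPM in SS (SD, n = 5 each; 0.79, adjusted p = 0.0085) and kept its call without any 1 library. Called podocyte genes numbered 5 without SS replicate 5, 1 without SS replicate 3 and 0 with the segment 3 covariate described below. Wt1, a podocyte transcription factor, averaged 24.3 CPM in NOX4 against 15.9 CPM in SS (0.61, adjusted p = 0.13).

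In the thick ascending limb, 2 of 14 genes were called, both higher, against 0.336% of all genes called higher, with a median of 0.38. Kcnj1 (ENSRNOG00000059005, chromosome 8, 33514042 to 33518165, plus strand) encodes ROMK, the potassium channel that recycles and secretes potassium. It had 199, 170.1, 208, 213 and 192 CPM in NOX4 against 128, 131, 124, 126 and 154 CPM in SS. The groups did not overlap, and the log2 fold change was 0.57 ± 0.10 (SE, adjusted p = 0.0066). Bsnd, which encodes the chloride channel subunit barttin, averaged 96.9 CPM in NOX4 against 59.5 CPM in SS (0.70, adjusted p = 0.013). Slc12a1, the cotransporter that defines this segment, averaged 335 CPM in NOX4 against 356 CPM in SS (-0.09 ± 0.19, SE, adjusted p = 0.96), and Umod 2366 CPM in NOX4 against 2188 CPM in SS (0.11, adjusted p = 0.94).

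Distal convoluted tubule genes gave 1 call among 13, against 0.336% of all genes called higher, although all 13 had positive log2 fold changes. The median was 0.38. The called gene was Slc8a1, a sodium-calcium exchanger, with 77, 90.9, 102, 93.4 and 101 CPM in NOX4 against 44.4, 47.6, 39.7, 53 and 62 CPM in SS (0.91 ± 0.22, SE, adjusted p = 0.037). That call held in 1 of the 10 fits without 1 library. Calb1, the calcium-binding calbindin, averaged 536 ± 72.8 CPM in NOX4 against 246 ± 56.9 CPM in SS without passing (SD, n = 5 each; 1.12, adjusted p = 0.073). The thiazide-sensitive cotransporter Slc12a3, which defines the segment, averaged 848 CPM in NOX4 against 543 CPM in SS (0.64, adjusted p = 0.11). Pvalb, another marker of the segment, was at 0 in all 10 libraries.

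In the collecting duct, 12 of 15 principal cell markers had positive and 3 negative log2 fold changes (median 0.53). The called genes were 2, the water channels Aqp2 and Aqp3, both higher, against 0.336% of all genes called higher. Aqp2 (ENSRNOG00000054378, chromosome 7, 141237768 to 141245165, plus strand) had 378, 307, 352, 479 and 424 CPM in NOX4 against 231, 193, 163, 228 and 236 CPM in SS. Every NOX4 library was above every SS library (0.88 ± 0.19, SE, adjusted p = 0.017), and the call held in 6 of 10 fits without 1 library. Aqp3 averaged 136 CPM in NOX4 against 88.6 CPM in SS (0.61, adjusted p = 0.023). The sodium channel subunits Scnn1g (0.63, adjusted p = 0.062) and Scnn1a (0.63, adjusted p = 0.070) missed the threshold.

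Intercalated cells, which move acid and base, had the highest list median of these segments, 0.61, with 16 of 18 genes positive and 2 negative. Of the 18, 3 were called, all higher, against 0.336% of all genes called higher. They were the proton pump subunits Atp6v0d2 (0.63, adjusted p = 0.0088) and Atp6v1c2 (0.64, adjusted p = 0.042) and the ammonia channel Rhcg (0.61, adjusted p = 0.016). Atp6v0d2 had 38, 35.3, 41, 44.1 and 39.3 CPM in NOX4 against 20.2, 23, 27.4, 24.4 and 32.9 CPM in SS, with SS replicate 5 the highest of its group. The base exchangers Slc4a1 (0.63, adjusted p = 0.055) and Slc26a4 (0.70, adjusted p = 0.13) had similar log2 fold changes without passing. Among 38 sodium and potassium transport genes, 3 were called, against 0.336% of all genes called higher. They were Kcnj1, Bsnd and Slc8a1, named above, and the list had a median of 0.26 and 30 positive members.

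SS replicate 5 bears on these segments and on the calls across all genes. Its mean log2 CPM of intercalated cell markers was 6.04, against 5.83 to 6.21 in the 5 NOX4 libraries and 5.23 to 5.61 in the other SS libraries. Without it, called genes numbered 10 of the intercalated list, 7 of the thick ascending limb list, 7 of the distal convoluted list and 4 of the principal cell list. Without SS replicate 3 they numbered 1, 1, 0 and 0 in that order, and with the segment 3 covariate 0, 1, 0 and 0. Across all genes tested, 51 were called higher with all libraries and 129 without SS replicate 5. Without SS replicate 3 that number was 9, and with the covariate 3. On the 10 libraries alone the numbers were 8, 8, 7 and 8, against 4.12% of all genes called higher.

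**Figure D3:**
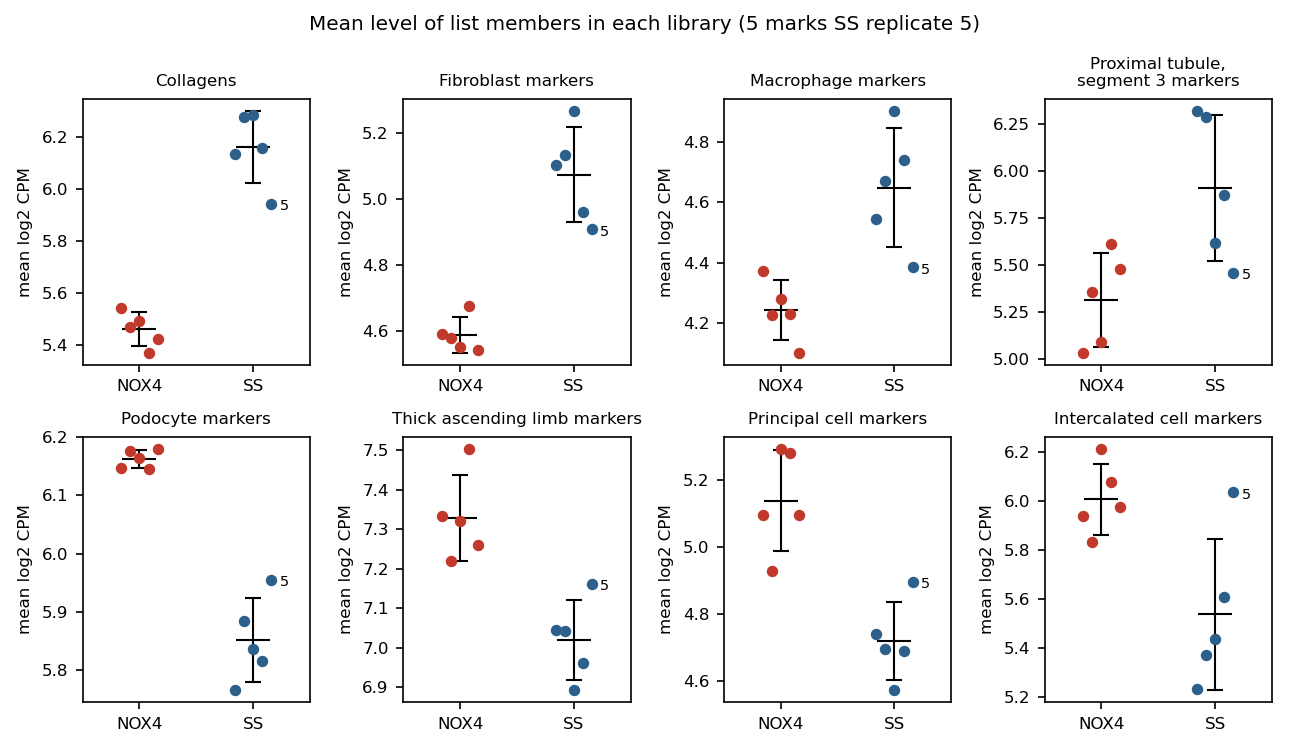
Mean log2 CPM over the members of 8 lists in each cortex library at HS21, with group mean and SD in black and SS replicate 5 marked 5. Collagens (5.37 to 5.54 in NOX4, 5.94 to 6.28 in SS) and podocyte markers (6.14 to 6.18 in NOX4, 5.77 to 5.96 in SS) separate the groups completely, whereas in intercalated cell markers SS replicate 5 (6.04) lies within the NOX4 range.

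Proximal tubule, which makes up most of the cortex, gave no call. Its early segments (18 genes, median 0.19) had 3 members at an unadjusted p under 0.05, and DESeq2 called 2. The last straight segment, segment 3 (12 genes, median -0.43), had 5 such members, all lower, and DESeq2 called none. Slc22a7, an organic anion transporter of segment 3, averaged 3.01 CPM in NOX4 against 9.05 CPM in SS (-1.58, adjusted p = 0.24). The segment 3 sum was 1750.1 to 2395 CPM in NOX4 against 2002 to 3487 CPM in SS, and the mean log2 CPM of the list was entered as a covariate. The fit then called 28 genes (0.184%): 25 lower, with Fn1 (-1.18, adjusted p = 0.0041), Ltbp2 (-2.06, adjusted p = 0.0001), Col8a1, Loxl1 and Nox4 among them, and 3 higher, with Kcnj1 and Dnase1 among them. Of the original 152, 21 lower and 2 higher genes stayed called, and no sign turned. Sox9 then had a log2 fold change of -0.74 with an adjusted p of 0.27.

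Mitochondrial genes had small positive differences, few of which passed the test. All 32 nuclear genes of complex I, the entry point of the respiratory chain, had positive log2 fold changes with a median of 0.22, and for 21 of them every NOX4 library lay above every SS library, against 3.75% of all genes. Ndufa1 alone exceeded 0.31, with a poorly determined 3.25 ± 1.72 (SE, adjusted p = 0.50) from 10.5 ± 19.0 CPM in NOX4 against 1.11 ± 2.06 CPM in SS (SD, n = 5 each). Of the 32, 2 were called, against 0.336% of all genes called higher. They were the subunits Ndufs7 (0.27 ± 0.07, SE, adjusted p = 0.046) and Ndufb9 (0.31 ± 0.08, SE, adjusted p = 0.044). Each kept its call in 1 of the 10 fits without 1 library. Ndufb9 had 183, 197, 186, 191 and 205 CPM in NOX4 against 167, 142, 143, 161 and 162 CPM in SS. The lowest NOX4 library exceeded the highest SS library by a small margin. On the 10 libraries alone 17 of the complex I genes were called, all higher, against 4.12% of all genes called higher in that fit.

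Complexes II to V had 36 of 37 members positive, with a median of 0.21 and 25 at an unadjusted p under 0.05. EdgeR called none of them and DESeq2 1, while limma voom called 24 and the 10 libraries alone 22. Across all genes, limma voom called 1052 higher and the 10 libraries alone 602 (4.12%). Cox4i1, a subunit of cytochrome oxidase, averaged 606 CPM in NOX4 against 498 CPM in SS (0.28, adjusted p = 0.055). The 11 mitochondrially encoded genes had a median of 0.18 and no call by edgeR or DESeq2, with 3 members at an unadjusted p under 0.05. In the tricarboxylic acid cycle 28 of 29 genes were positive (median 0.14, 11 at an unadjusted p under 0.05), none called by edgeR and 2 by DESeq2. Of 39 genes of fatty acid and ketone metabolism 1 was called, Hadhb, the beta subunit of the trifunctional enzyme of beta oxidation (0.23, adjusted p = 0.046). Of 39 genes of amino acid breakdown also 1 was called, the aspartate aminotransferase Got1 (0.28, adjusted p = 0.044). Both were higher, against 0.336% of all genes called higher. These small differences stand beside the lower number of genes detected at equal depth in NOX4 libraries and the higher share of mitochondrial counts given above; their part in the result was not tested.

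Redox genes other than Nox4 gave few changes. Of 9 NADPH oxidase genes only Nox4 was called. Cyba, its membrane partner, had 218, 223, 242, 206 and 201 CPM in NOX4 against 148, 141, 174, 198 and 198 CPM in SS (0.35 ± 0.19, SE, adjusted p = 0.52), and Cybb, the catalytic subunit of phagocytes, averaged 50.7 CPM in NOX4 against 70.0 CPM in SS (-0.46, adjusted p = 0.39). For Cyba the groups do not overlap but lie close together. Of 34 genes of peroxide, thioredoxin and glutathione defence none was called by edgeR (median 0.10, 9 at an unadjusted p under 0.05, 7 of them higher; 3 by DESeq2). Gpx1, a glutathione peroxidase that removes hydrogen peroxide, averaged 1399 ± 84 CPM in NOX4 against 987.3 ± 91.2 CPM in SS (SD, n = 5 each; 0.50, adjusted p = 0.056). Nfe2l2, the transcription factor of the antioxidant response, had a log2 fold change of 0.31 (adjusted p = 0.056). Of 26 conjugating enzymes and P450 genes 1 was called, Cyp1b1, which was lower (-1.71, adjusted p = 0.020), against 0.665% of all genes called lower.

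Vasoactive genes gave no call by edgeR: 13 renin-angiotensin genes (median -0.03, 6 at an unadjusted p under 0.05, 1 called by DESeq2), 17 endothelin, nitric oxide and kinin genes (median -0.13, 7 at an unadjusted p under 0.05, 4 called by DESeq2) and 28 eicosanoid genes (median 0.02, 6 at an unadjusted p under 0.05, 0 called by DESeq2). Agt, which encodes angiotensinogen, averaged 15.9 CPM in NOX4 against 42.5 CPM in SS (-1.41 ± 0.46, SE, adjusted p = 0.16). Cell cycle genes (31, median -0.37), circadian genes (18, median 0.42), immediate early genes (23, median -0.35), heat shock and ER stress genes (30, median -0.03), cholesterol and fatty acid synthesis (26, median 0.01), glycolysis and gluconeogenesis (27, median 0.07), organic ion transporters (22, median -0.12), endothelial markers (18, median 0.07), red blood cell markers (7, median -0.33) and ribosomal proteins (36, median 0.06) had no member called by edgeR. Members at an unadjusted p under 0.05 numbered from 0, in the endothelial and red blood cell lists, to 6, in the immediate early, glycolysis and organic ion lists. DESeq2 called from 0 to 2 a list. Among all 15179 genes tested, 1729 were at an unadjusted p under 0.05. Cldn5 of endothelium was at 0 in all 10 libraries.

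Of the remaining higher genes, Dnase1 (ENSRNOG00000006873), which encodes the secreted deoxyribonuclease of urine, had the greatest fold change. It had 218, 169, 194, 225 and 204 CPM in NOX4 against 99.1, 82.5, 80.7, 98.6 and 148 CPM in SS, with only SS replicate 5 near the NOX4 range (0.99 ± 0.17, SE, adjusted p = 0.0068). Slc16a7, the monocarboxylate transporter MCT2 (0.68, adjusted p = 0.0088), and Adcy1, an adenylyl cyclase (0.72, adjusted p = 0.0079), also stayed called without any 1 library. Slc16a7 varied little among NOX4 libraries, at 79.4, 78, 79.1, 75.3 and 75 CPM, against 41.8, 46.6, 45.2, 42 and 65 CPM in SS. Tnnc1, a troponin C (0.98, adjusted p = 0.013), held in 9 of the 10. Klk1c9 (0.72, adjusted p = 0.046) belongs to the kallikrein family of near-identical genes, so its value is uncertain.

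The strain difference was set beside those at LS and HS7, which rest on other libraries. At LS, 22.0% of all genes were called between the strains in the same fit, and at HS7 17.4%. Without the low-complexity SS libraries the order turned, with 1621 of 15618 genes called at LS and 3117 at HS7. Of the 101 genes lower at HS21, 31 were lower at LS (10.3% of all genes were) and 59 at HS7 (7.77%), 22 were lower at both and 32 were called at neither. Of the 51 higher genes, 31 were higher at LS (11.7% of all) and 29 at HS7 (9.61%), 23 at both. Tmem176b was the 1 gene called in opposite directions, higher in NOX4 at LS and lower at HS21; without the low-complexity libraries its LS value was 0.14 (adjusted p = 0.62).

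The median log2 fold change of the collagen list was 0.04 at LS, with none of 22 called, -0.28 at HS7, with 8 lower and 1 higher, and -0.68 at HS21. The change of the list with diet was not tested. Ltbp2 averaged 10.4 ± 3.52 CPM in NOX4 against 10.5 ± 3.27 CPM in SS at LS, 9.14 ± 1.99 CPM in NOX4 against 22.4 ± 5.80 CPM in SS at HS7, and 13.4 ± 4.32 CPM in NOX4 against 44.8 ± 13.7 CPM in SS at HS21 (SD, n = 5 each). Col6a1 averaged 64.2 ± 12.7 CPM in NOX4 against 62.2 ± 8.41 CPM in SS at LS, 52.5 ± 8.70 CPM in NOX4 against 63.8 ± 14.7 CPM in SS at HS7, and 58.0 ± 4.60 CPM in NOX4 against 101 ± 10.99 CPM in SS at HS21. Without the low-complexity SS libraries the log2 fold change at LS was -0.43 (adjusted p = 0.42) for Ltbp2, against -0.01 with them, and 0.05 for Col6a1. Fn1 was called at LS, with 101 ± 17.1 CPM in NOX4 against 146 ± 38.9 CPM in SS (log2 fold change -0.53, adjusted p = 0.02), but not without the low-complexity libraries (-0.37, adjusted p = 0.22). Podocyte and intercalated medians were positive at every diet, at 0.29 and 0.45 at LS and 0.40 and 0.75 at HS7. The injury list had a median of -0.15 at LS and -0.36 at HS7. Without the low-complexity SS libraries, Sox9 had a log2 fold change of -1.54 at LS (edgeR, adjusted p = 0.0099) and of -1.49 at HS21. The strain effect on Sox9 at HS21 minus that at LS was 0.05 in that fit (edgeR interaction test, adjusted p = 0.97).

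Whether the strain effect at HS21 differed from that at LS was tested as an interaction, which called 164 genes (1.08% of those tested; 0.514% with a more positive and 0.567% with a more negative effect at HS21). Among the 101 lower genes, 8 had an effect beyond that at LS: Ltbp2 (difference -1.73 ± 0.35, SE, adjusted p = 0.016), Col8a1 (-2.17, adjusted p = 0.026), Htra3 (-1.16, adjusted p = 0.031), Col6a1 (-0.84, adjusted p = 0.036), Loxl1 (-0.86, adjusted p = 0.011), Col6a2 (-0.89, adjusted p = 0.041), Col4a2 (-0.70, adjusted p = 0.036) and Tmem176b (-0.93, adjusted p = 0.011). Of the 101 lower genes, 51 were at an unadjusted p under 0.05 in this interaction, and DESeq2 called 22 and limma voom 17. None of the 51 higher genes was called by edgeR, with 10 at an unadjusted p under 0.05, and DESeq2 called 3 and limma voom 8. Across all genes DESeq2 called 522 in the interaction with LS and limma voom 993. Both sets were selected on the HS21 libraries that also enter this interaction and that with HS7. Their counts are therefore not comparable with the shares of all genes. Tgfb1 passed this test although it missed the threshold at HS21 itself: it averaged 39.5 CPM in NOX4 against 25.0 CPM in SS at LS and 39.0 CPM in NOX4 against 54.8 CPM in SS at HS21 (-1.15 ± 0.18, SE, adjusted p = 0.0018). Without the 5 low-complexity SS libraries, which leaves 2 SS libraries at LS, the interaction called 79 genes; without 1 HS21 library it called 51 to 128. Tgfb1 kept its call there (-1.06, adjusted p = 0.032), but none of those 8 did: Ltbp2 had -1.32 (adjusted p = 0.15), Htra3 -1.31 (adjusted p = 0.063), Col8a1 -2.23 (adjusted p = 0.068) and Col6a1 -0.85 (adjusted p = 0.097).

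Against HS7 the interaction called 36 genes (0.237%; 0.0791% more positive and 0.158% more negative at HS21), and none of the 152 was among them by edgeR (37 at an unadjusted p under 0.05, by direction 10 of the higher and 27 of the lower; DESeq2 called 3 and 4, limma voom 2 and 1). Across all genes DESeq2 called 281 in the interaction with HS7 and limma voom 212. Without the low-complexity libraries edgeR called 1 of the 152, Fabp4 (-1.65, adjusted p = 0.049). Against LS the smallest p-values of all genes belonged to Zbtb20 and Hipk2, which were not called at HS21. Zbtb20, a zinc-finger repressor, averaged 16.9 CPM in NOX4 against 14.7 CPM in SS at HS21 and 13.02 CPM in NOX4 against 79.2 CPM in SS at LS. The low-complexity SS libraries are among those at LS, and without them the difference from LS was 2.56 (adjusted p = 0.0063).

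**Figure D4:**
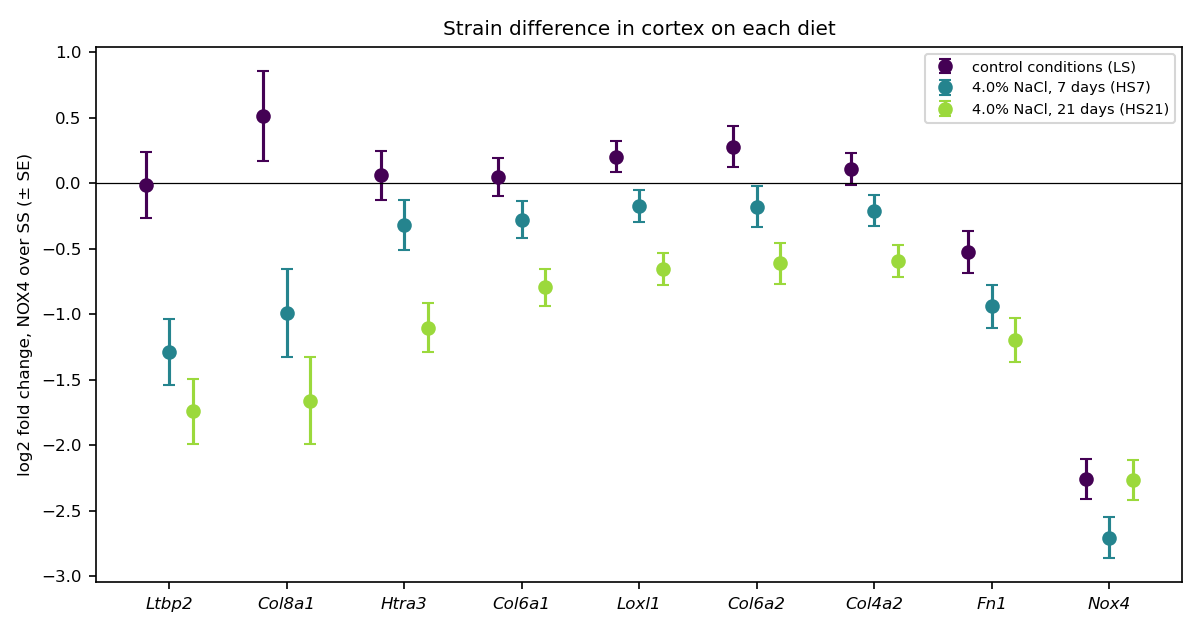
Log2 fold change (NOX4 over SS, bars 1 SE) in cortex at LS, HS7 and HS21 for 7 matrix genes called in the interaction between LS and HS21, and for Fn1 and Nox4. None of the 7 kept that call without the low-complexity SS libraries. Ltbp2 lies at -0.01 at LS (-0.43 without the low-complexity SS libraries) and at -1.74 at HS21, whereas Nox4 lies between -2.70 and -2.25 on every diet.

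Outer medulla of the same 2 groups, fitted separately over its own 30 libraries, had 258 called genes of 15799 (1.63%), 48 higher and 210 lower. Of the 101 genes lower in cortex, 43 were also called lower there (1.33% of all genes were), none was called higher and 88 had the same sign. Of 22 collagens 14 were called lower there, with a median of -1.26. Markers of proximal tubule had positive medians in outer medulla, 1.31 for the early segments and 1.09 for segment 3; their part in the result was not tested. With the segment 3 covariate outer medulla had 12 called genes. Fn1 had log2 fold changes of -1.20 in cortex and -1.40 in outer medulla (adjusted p = 0.016), and Ltbp2 of -1.74 in cortex and -1.45 in outer medulla (adjusted p = 2.9e-05). Of the 51 genes higher in cortex, Dnase1 and Ndufb9 were called in outer medulla (0.304% of all genes were called higher), and 43 had the same sign. Intercalated cell markers, with a median of 0.61 in cortex, had -0.19 in outer medulla, and podocyte markers, which lie in the cortex, had 0.00. Sox9 had -1.49 in cortex and 0.41 in outer medulla (adjusted p = 0.67); the difference between the tissues was not tested.

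**Figure D5:**
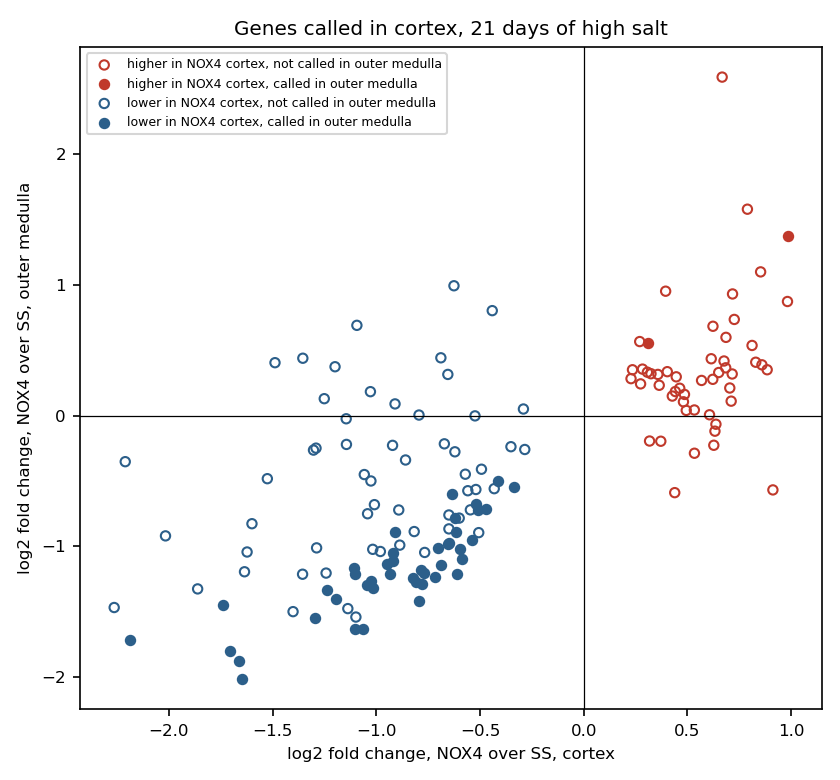
Log2 fold change (NOX4 over SS) at HS21 in cortex against that in outer medulla for the 152 genes called in cortex; filled points are also called in outer medulla. Of the 101 genes lower in cortex, 88 lie below 0 on the outer medulla axis, and 43 of the 51 higher genes lie above it.

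Promoters of the called genes were searched for motifs of transcription factors. RefSeq promoters (GRCr8, 250 bases before to 50 after the gene start) were matched by symbol for 67 of the 101 lower genes and 40 of the 51 higher genes, and both strands were searched. The sequences below show the fibrinogen gene with a STAT match and a collagen and the ROMK gene with an AP-1 match, capitals marking the matches.
Fga, chr2:170671919-170672218, plus strand, TTCNNNGAA in capitals: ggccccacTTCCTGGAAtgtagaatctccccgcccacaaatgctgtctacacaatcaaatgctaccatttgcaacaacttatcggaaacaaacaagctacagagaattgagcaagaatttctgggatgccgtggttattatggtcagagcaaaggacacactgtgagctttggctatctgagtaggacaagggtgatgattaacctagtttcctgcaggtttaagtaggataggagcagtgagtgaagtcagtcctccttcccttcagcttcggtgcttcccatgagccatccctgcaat
Col6a1, chr20:11905440-11905739, plus strand, TGACTCA in capitals: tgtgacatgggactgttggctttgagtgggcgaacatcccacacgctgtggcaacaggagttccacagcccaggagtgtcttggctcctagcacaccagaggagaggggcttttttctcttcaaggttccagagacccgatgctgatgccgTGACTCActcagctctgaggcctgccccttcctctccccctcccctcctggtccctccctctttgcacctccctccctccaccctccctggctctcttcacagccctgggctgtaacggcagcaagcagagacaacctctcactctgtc
Kcnj1, chr8:39037742-39038041, plus strand, TATAAA and, on the other strand, TGACTCA in capitals: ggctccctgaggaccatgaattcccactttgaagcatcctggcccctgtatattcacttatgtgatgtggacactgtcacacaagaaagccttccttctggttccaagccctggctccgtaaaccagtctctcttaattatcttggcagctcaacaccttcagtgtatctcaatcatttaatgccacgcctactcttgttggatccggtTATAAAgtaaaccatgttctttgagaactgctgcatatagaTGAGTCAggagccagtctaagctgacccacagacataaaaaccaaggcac

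The STAT motif TTCNNNGAA was present in 6 of 67 promoters of lower genes (8.96%) and in 1 of 40 promoters of higher genes (2.5%), against 8.68% of 27457 promoters. The AP-1 motif TGACTCA was in 2 of the lower (2.99%) and 1 of the higher (2.5%), against 4.53% of all, and TATAAA in 4 of the lower (5.97%) and 4 of the higher (10%), against 14.3%. CCAAT was in 15 of the lower (22.4%) and 16 of the higher (40%), against 37.7%, and the cAMP response element TGACGTCA in none of the lower and 2 of the higher (5%), against 1.91%. None of these shares was tested, and a match is a description of the letters.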

How the data were processed

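RNA was sequenced from kidney cortex and outer medulla. Per the submitters' processing notes, HISAT2 2.0.5, StringTie 1.3.3b and featureCounts 1.5.0-p3 were used; their roles, the genome build and strandedness are not given in the sources used here, so antisense and overlapping genes cannot be told apart. The authors deposited 1 table of 32545 genes with counts and FPKM values per library and, per comparison, log2 fold changes and adjusted p-values, of which only the number past 0.05 was used.

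Counts were tested with edgeR 4.0.16 (quasi-likelihood, TMM scaling, filterByExpr, 1 coefficient per group, Benjamini-Hochberg) over the 30 libraries of a tissue. CPM uses TMM-scaled totals, and its precision is limited by totals of 14.8 to 26.8 M counts. Deposited FPKM served to compare levels between genes. DESeq2 1.42.0, limma 3.58.1 voom, other scalings and filters, left-out libraries and a segment 3 covariate were alternatives; leaving out the low-complexity libraries, and 1 library from the fit of 10, were added after seeing the data. Of 1197 entries in 49 gene lists, 1146 matched.

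Members, lists and tests were chosen with earlier results of these data known. Named genes are Nox4, the 15 highest and 15 lowest called fold changes with a symbol and at least 1 CPM, the 10 smallest p-values, called list members, 3 leading members of each list and the 5 smallest interaction p-values; others were chosen after their values were seen. Genes withheld from this account are not reported here, though list counts include them.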

Additional observations from a re-analysis of the deposited data

Results flagged for a closer look

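Of 260 groups of 5 libraries examined, 18 held a library far from the other 4, where chance gives about 1 in 20. The groups covered selected genes, the mean level of the cell type lists, library totals, genes detected and mitochondrial share. In SS, replicate 5 stood above the others in Kcnj1 (154 CPM), Nphs1 (73.9 CPM), Ptpro (70.3 CPM), Slc16a7 (65.0 CPM), Dnase1 (148 CPM), Slc4a1 (241 CPM) and Scnn1g (50.5 CPM), and in each of these it was the SS library nearest to the NOX4 level. Replicate 4 of SS stood above the others in Adipoq (8.62 CPM) and replicate 2 in Ndufa1 (4.80 CPM). In NOX4, replicate 3 was high in Socs3 (9.39 CPM) and Nphs1 (102 CPM) and low in Serpine2 (17.3 CPM). NOX4 replicate 4 was high in Ndufa1 (44.0 CPM) and Ndufs7 (188 CPM) and low in C4a (68.1 CPM). NOX4 replicate 1 was high in C3 (37.6 CPM) and Col6a2 (82.4 CPM), and replicate 2 was low in Scnn1a (66.5 CPM).

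The strain effect in cortex at HS21 differed from that at LS by the interaction test in Ltbp2 (-1.73), Col8a1 (-2.17), Htra3 (-1.16), Col6a1 (-0.84), Loxl1 (-0.86), Col6a2 (-0.89), Col4a2 (-0.70), Tmem176b (-0.93), Tgfb1 (-1.15), Hipk2 (1.59) and Zbtb20 (2.80), all on the log2 scale. Without the low-complexity SS libraries the first 8 of these lost the call (adjusted p between 0.063 and 0.15). Zbtb20 also differed from HS7 (1.98). Nfe2l2 had a log2 fold change of -0.21 in outer medulla, where all 5 NOX4 libraries lay on the other side than in cortex; this difference between the tissues was not tested.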

How the results depend on the processing

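The number of genes called in cortex at HS21 (152) was 339 by DESeq2, 2161 by limma voom, 1937 in the authors' deposited table, 1237 from the 10 libraries alone, 891 without the SS LS and SS HS7 groups, 583 without the low-complexity SS libraries and 28 with the segment 3 covariate. It ranged from 29 to 290 without 1 library, and from 476 to 1904 without 1 of the 10 fitted alone, where the other values were 568, 635, 676, 685, 726, 851, 863 and 1092. The interaction with LS (164) was 522 by DESeq2, 993 by limma voom, 804 from its own groups, 109 with no filter, 61 with the segment 3 covariate, 79 without the low-complexity libraries and 51 to 128 without 1 library. That with HS7 (36) was 281, 212, 105 and 199 by DESeq2, limma voom, the covariate and without the low-complexity libraries, 13 to 30 without 1 library, and 0 by edgeR from its own groups alone (2086 at an unadjusted p under 0.05). Outer medulla (258) gave 640 by DESeq2, 7461 by limma voom, 5446 in the deposited table, 3703 from its 2 groups, 2319 without the SS LS and HS7 groups, 171 with no filter, 12 with the covariate and 28 to 834 without 1 library.

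With the replicate number as a block, 145 genes were called in cortex, 103 in the interaction with LS and 146 in outer medulla. Nox4 had -2.26 by an exact sign-flip permutation test over the 5 pairs, with p = 0.0625, the smallest it can give. The numbers did not pair the libraries: same-numbered deviations correlated between -0.133 and 0.168, and 1 of 5 NOX4 libraries correlated best with its own number. Scaling by DESeq2 size factors shifted the median of all genes by -0.01 and gave 28% higher genes among the calls, against 33.6%. None of the 152 genes changed sign under any alternative run; with the covariate 129 missed the threshold. Among genes not called, Slc12a1 turned to 0.35 and Cyba to -0.055 with the covariate, and Slc12a1 to 0.013 without SS replicate 2 (0.0078 in the fit of 10). Its values without 1 library lay between -0.16 and 0.013. The causes were not tested. Totals of 14.8 to 26.8 M counts and 5 libraries a group limit the detection of small differences.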
